A study of Mus musculus with 9 samples.

Results

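Epcam, the keratins Krt8, Krt18 and Krt19, the tight junction genes Ocln and Tjp1, the polarity genes Crb3 and Pard6b and the splicing regulator Esrp1 were followed in renal vesicles of wild-type and Lim1 mutant mice. They were taken as the 16 probe sets whose only gene symbol in the platform annotation is 1 of these 9 names, of 45101 probe sets on the array, which named 18193 genes in this way. The wild-type group held 5 arrays and the mutant group 4, each a biologically independent sample of about 30 to 50 vesicles collected by laser microdissection at the stage E12.5. Lim1 is the former name of Lhx1, a LIM homeodomain gene of the early nephron. The labels name neither the strain nor the Lim1 allele, whether it was deleted in all cells or in the kidney, nor the number of embryos or litters behind a sample.

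A renal vesicle forms when cap mesenchyme condenses beside the ureteric bud and turns into a small polarised epithelium, which later becomes the nephron. Such an epithelium is built from adhesion molecules and tight junctions near the apical border, from a keratin network of paired type I and type II filaments, and from the Crumbs and Par protein complexes that set the apical domain. The ureteric bud next to the vesicle is itself an epithelium and carries several of the same proteins. Captured tissue is a mixture, and in it fewer cells of a type and less RNA per cell cannot be told apart.

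Array medians ranged from 144 to 195 signal units, and the trimmed mean was 1500.01 on each array. Of 9 listed renal vesicle markers with a probe set here, all 9 passed the filter on dim probe sets, and Wnt4 read 12926 to 41699 on wild-type arrays and 15930 to 43230 on mutant arrays. The median log2 difference of these 9, mutant minus wild type, was -0.32, against 0.07 over all genes. Of the 9, 4 lay above 0 and 5 below, and none passed the test between the groups. An unadjusted limma p below 0.05 was reached by 2 of the 9, where 7.73% of all genes did so. The level of the list, the median deviation of its genes, was -0.49 and -0.50 on wild-type arrays 2 and 3. It was 0.45 to 0.68 on the other wild-type arrays and -0.25 to -0.15 on the mutants. The 3′ to 5′ signal ratio of Gapdh, a measure of transcript length after amplification, ran from 12.4 to 87.6 over the wild-type arrays and from 17.8 to 61.4 over the mutant arrays. Wild-type array 3 had the highest Gapdh ratio, and also the highest levels of the listed stroma and endothelium markers, at 1.97 and 1.57 log2 units above the mean of the arrays. The same ratio for Actb ran from 14.7 to 21.7 over the wild-type arrays and from 16.3 to 25.2 over the mutant arrays. On wild-type array 3 it was 18.0.

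No epithelial gene of the set passed the test between the groups. Of the 16 probe sets, 14 from 8 genes passed the filter, and 0 of these 14 passed limma's test at an adjusted p of 0.05, with 0 also at an unadjusted p of 0.05. Over the whole array 0.0333% of 27022 tested probe sets passed the adjusted threshold and 6.67% the unadjusted one. The groups overlapped at all 14, where 2.25% of tested probe sets had no overlap. Mutant minus wild-type log2 differences were below 0 at 10 of the 14 and above 0 at 4, where 47.3% of all tested probe sets lay below 0, with a median of -0.27 against 0.03 over all. With each gene at its brightest probe set, 5 of 8 lay below 0, where 43.5% of 13226 genes did. The intervals below give the range of differences that the spread allowed, and a missed threshold does not show that the groups were alike.

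**Figure D1:**
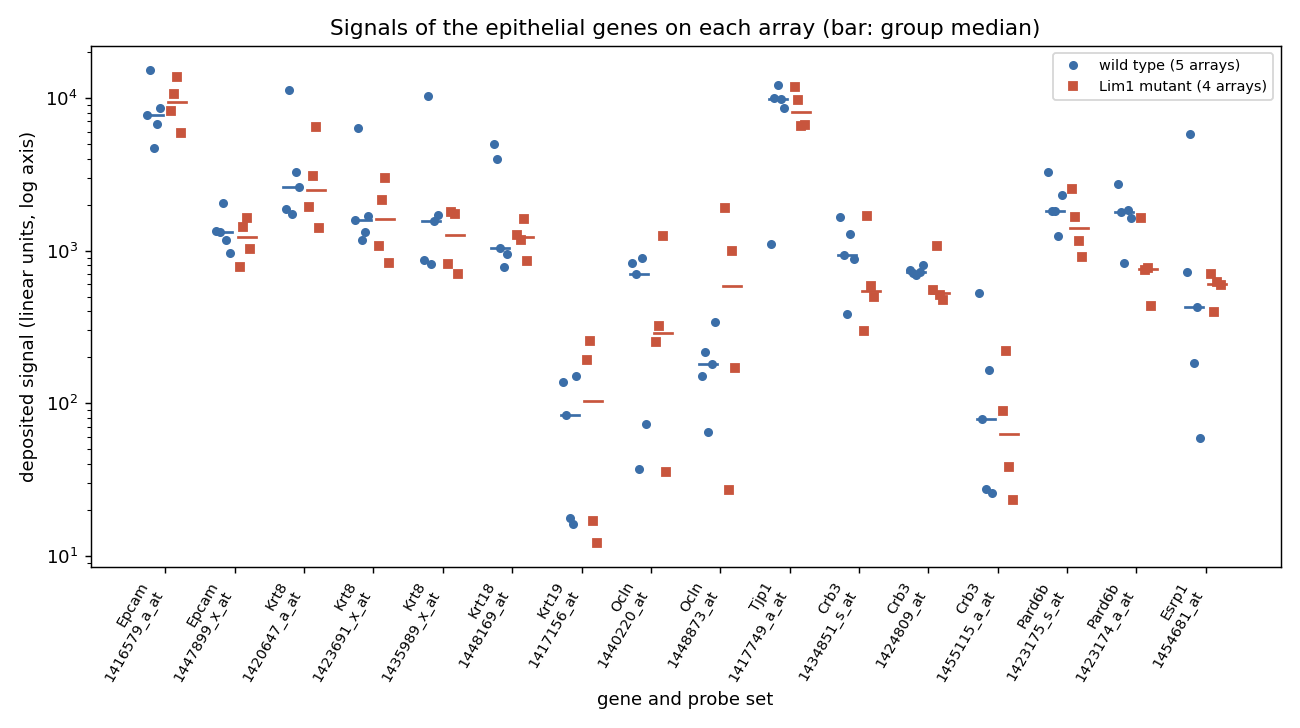
Deposited signal (linear units on a log axis) of each probe set of the 9 genes on each array, with wild-type arrays as blue circles, mutant arrays as red squares and the group median as a bar. The groups overlap at each probe set, and wild-type array 2 stands above the rest for Krt8 and Esrp1, at 11257 and 5756.

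**Figure D2:**
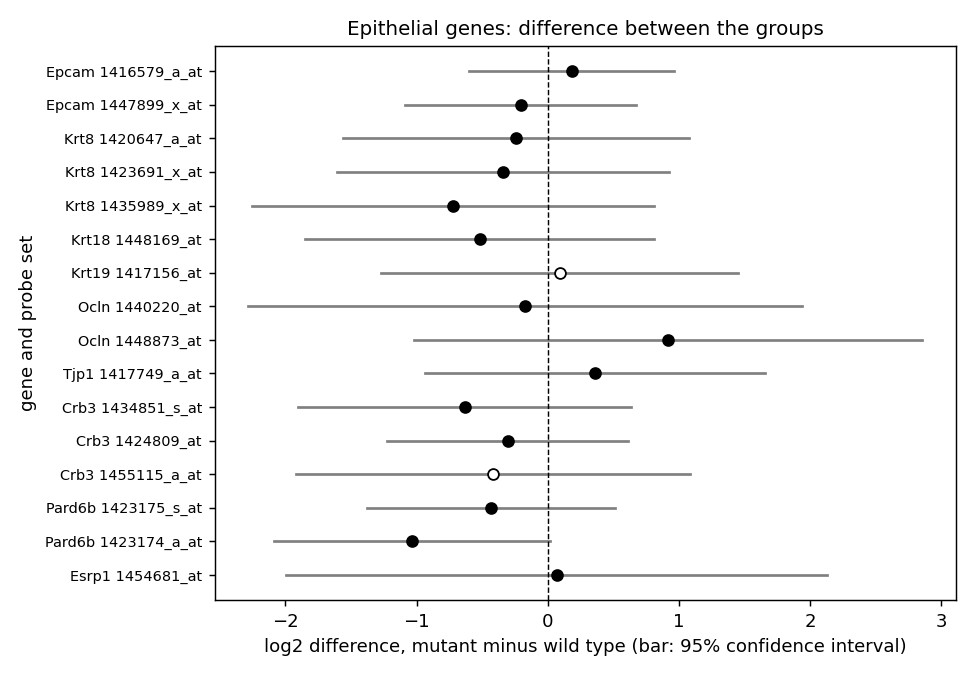
Log2 difference, mutant minus wild type, for each probe set, with its 95% confidence interval from limma. Filled points passed the filter on dim probe sets, open points come from the fit without that filter, and each interval includes 0, the upper end for Pard6b 1423174_a_at lying at 0.01.

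Epcam encodes a homophilic adhesion protein of simple epithelia. Its brighter probe set, 1416579_a_at, read 7712, 15297, 4723, 6780 and 8617 on wild-type arrays 1 to 5 and 8255, 10649, 13731 and 5859 on mutant arrays 1 to 4. All 4 mutant arrays lay inside the wild-type range. The log2 difference was 0.18 ± 0.36 (SE), with a 95% interval of -0.60 to 0.97 (limma adjusted p = 0.952), which corresponds to between 0.661 and 1.95 times the wild-type level. Without wild-type array 3, which read lowest, the difference was -0.01. At the other Epcam probe set, 1447899_x_at, the means were 1370 ± 402 (SD, n = 5) in the wild type and 1215 ± 389 (n = 4) in the mutants, a difference of -0.21 ± 0.40 (limma adjusted p = 0.952), which was 0.016 without mutant array 1. Over the 9 arrays both Epcam probe sets correlated at r = 0.047 (rho = 0.133, exact permutation p = 0.906 and 0.744). Without wild-type arrays 2 and 3, the farthest from the median of the brighter probe set, r was 0.621. In the maker's naming the suffix x marks a probe set with probes shared by other transcripts.

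Krt8 is the type II keratin of simple epithelia and forms filaments with the type I partners Krt18 and Krt19. At the brightest Krt8 probe set, 1420647_a_at, the wild-type arrays read 1882, 11257, 1734, 3247 and 2603 and the mutant arrays 1929, 3085, 6440 and 1396. Wild-type array 2 was the highest and mutant array 3 the next, while mutant array 4 was the lowest. The log2 difference was -0.24 ± 0.60 (95% interval -1.56 to 1.07, limma adjusted p = 0.964). It turned to 0.21 without wild-type array 2 and to 0.08 without mutant array 4. The other probe sets, 1423691_x_at and 1435989_x_at, gave differences of -0.34 ± 0.58 and -0.72 ± 0.70 (limma adjusted p = 0.946 and 0.890), and on both wild-type array 2 was again highest, at 6350 and 10265. Without that array the first of these turned to 0.07 and the second was -0.12. The 3 Krt8 probe sets tracked each other over the 9 arrays, with r of 0.923 to 0.935 between pairs (rho of 0.883 to 0.983, exact permutation adjusted p = 0.00202 or less for r over 9 pairs of probe sets of a gene).

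Krt18, at 1448169_at, read 4983, 3984, 1036, 775 and 945 on the wild-type arrays and 1271, 1169, 1607 and 854 on the mutant arrays. Wild-type arrays 1 and 2 stood above all others, and the 4 mutant arrays lay among the lower 3 wild-type arrays or between them and the upper pair. The log2 difference was -0.52 ± 0.61 (95% interval -1.85 to 0.81, limma adjusted p = 0.915). It was -0.14 without wild-type array 1, -0.23 without wild-type array 2 and -0.85 without wild-type array 4. Krt18 did not follow its filament partner closely, since Krt8 was low on wild-type array 1 where Krt18 was highest, and their correlation over the arrays was 0.434 (rho = 0.367, exact permutation p = 0.231 and 0.336). It was -0.15 without wild-type array 2 and mutant array 3, the arrays farthest from the Krt8 median. Krt19, a type I keratin without the tail domain of the others, was dim at its only probe set, 1417156_at, which lay below the filter. Its signals were 137, 83.3, 17.7, 16.2 and 151 on wild-type arrays and 192, 256, 16.9 and 12.1 on mutant arrays. In the fit without the filter its difference was 0.09 ± 0.62 (limma adjusted p = 0.993). No detection call was used here, so a dim signal gives no statement on whether the gene was expressed.

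Occludin, encoded by Ocln, is a membrane protein of the tight junction strand, and its readings varied widely within groups. At 1440220_at the wild-type arrays read 831, 705, 36.9, 893 and 73.6 and the mutant arrays 254, 322, 1247 and 35.8. Each group thus held arrays near the dim end and arrays well above it. The difference was -0.17 ± 0.96 (95% interval -2.28 to 1.93, limma adjusted p = 0.985), and it turned to 0.51 without mutant array 4, to 0.19 without wild-type array 1, to 0.13 without wild-type array 4 and to 0.06 without wild-type array 2. At 1448873_at the wild-type arrays read 150, 217, 64.6, 180 and 339 and the mutant arrays 1899, 27.3, 994 and 172. Mutant arrays 1 and 3 lay above every wild-type array and mutant array 2 below every one. The difference there was 0.92 ± 0.88 (limma adjusted p = 0.890), opposite in sign to the first probe set. It was 0.19 without mutant array 1, 0.45 without mutant array 3 and 1.78 without mutant array 2. The probe sets correlated at r = 0.213 over the 9 arrays (rho = 0.317, exact permutation p = 0.576 and 0.410).

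Tjp1 encodes ZO-1, the scaffold that ties occludin and claudins to actin. Its probe set, 1417749_a_at, read 1113, 9987, 12090, 9801 and 8528 in the wild type and 11832, 9612, 6500 and 6608 in the mutants. Apart from wild-type array 1 the arrays formed a narrow range in which the groups overlapped. The difference was 0.36 ± 0.59 (95% interval -0.93 to 1.65, limma adjusted p = 0.944). Without wild-type array 1 it was -0.24 (limma adjusted p = 0.892).

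Crb3 is the small Crumbs protein of the apical membrane. At its brightest probe set, 1434851_s_at, the wild-type arrays read 1660, 931, 386, 1281 and 886 and the mutant arrays 298, 1686, 582 and 500. Mutant array 2 was the highest of all 9 and the other 3 mutant arrays were among the lowest 4. The difference was -0.63 ± 0.58 (95% interval -1.91 to 0.64, limma adjusted p = 0.884). With each array left out in turn it ran from -1.12, without mutant array 2, to -0.27, without mutant array 1. At 1424809_at the wild-type arrays kept within a range of 687 to 801, the narrowest of the set, while the mutant arrays read 549, 1070, 509 and 473. No mutant array lay inside that range, 3 being below it and 1 above. The difference was -0.31 ± 0.42 (limma adjusted p = 0.930), and -0.59 without mutant array 2 and -0.16 without mutant array 4. The third probe set, 1455115_a_at, was too dim for the filter, with means of 165 ± 212 (SD, n = 5) for the wild type and 92.9 ± 90.1 (n = 4) for the mutants.

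Pard6b, an adaptor that joins Cdc42 to atypical protein kinase C in the Par complex, came nearest to a difference. At 1423174_a_at the wild-type arrays read 2709, 1792, 834, 1836 and 1646 and the mutant arrays 1628, 744, 769 and 434. All 4 mutant arrays lay below the wild-type median, and 3 of them below the lowest wild-type array, while mutant array 1 lay among the wild-type arrays. The log2 difference was -1.04 ± 0.48 (95% interval -2.09 to 0.01), with an unadjusted limma p of 0.0527 and an adjusted p of 0.748. An exact permutation test over the 126 splits of the arrays gave p = 0.0476, two-sided and unadjusted, where the smallest possible is 0.00794. The difference ranged from -1.37 to -0.72 with each array left out in turn. At the brighter Pard6b probe set, 1423175_s_at, the means were 2089 ± 757 (SD, n = 5) and 1566 ± 725 (n = 4), a difference of -0.43 ± 0.43 (limma adjusted p = 0.895, exact permutation p = 0.349). With each array left out in turn this ran from -0.69, without mutant array 1, to -0.19, without mutant array 4. On both probe sets mutant array 4 was the lowest of the 9 arrays.

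Esrp1 encodes an RNA-binding protein that sets epithelial splice forms. At 1454681_at the wild-type arrays read 723, 5756, 184, 430 and 58.9 and the mutant arrays 708, 394, 618 and 594. The wild-type arrays spanned 97.7-fold and the mutant arrays 1.80-fold. All mutant arrays lay inside the wild-type range, and the difference was 0.07 ± 0.94 (95% interval -1.995 to 2.13, limma adjusted p = 0.994). Its sign rested on single arrays: it was 0.90 without wild-type array 2, which read highest, and -0.51 without wild-type array 5, which read lowest. It was -0.22 without wild-type array 3, -0.07 without wild-type array 4 and -0.01 without mutant array 3.

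Except at Pard6b 1423174_a_at, the groups differed by less than the within-group SD at each tested probe set. At Pard6b 1423174_a_at the log2 difference was -1.04, against a within-group SD of 0.68. The within-group SD on the log2 scale was 1.69 and 1.53 at the Ocln probe sets, 1.65 for Esrp1, 1.06 for Tjp1 and 0.94 to 1.19 for Krt8, against a median of 0.72 over all tested probe sets. It was below that median at both probe sets of Epcam and of Pard6b and at 1424809_at of Crb3, at 0.42 to 0.68. On the normalised scale mutant array 4 gave the lowest value at 9 of the 16 probe sets. These were the Krt8, Pard6b and Krt19 probe sets, Crb3 1424809_at and 1455115_a_at, and Ocln 1440220_at. Wild-type arrays 1 and 2 each gave the highest value at 5 of the 16. Several of these probe sets belong to the same gene and are not separate observations, and the same counts over all probe sets are not given here.

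**Figure D3:**
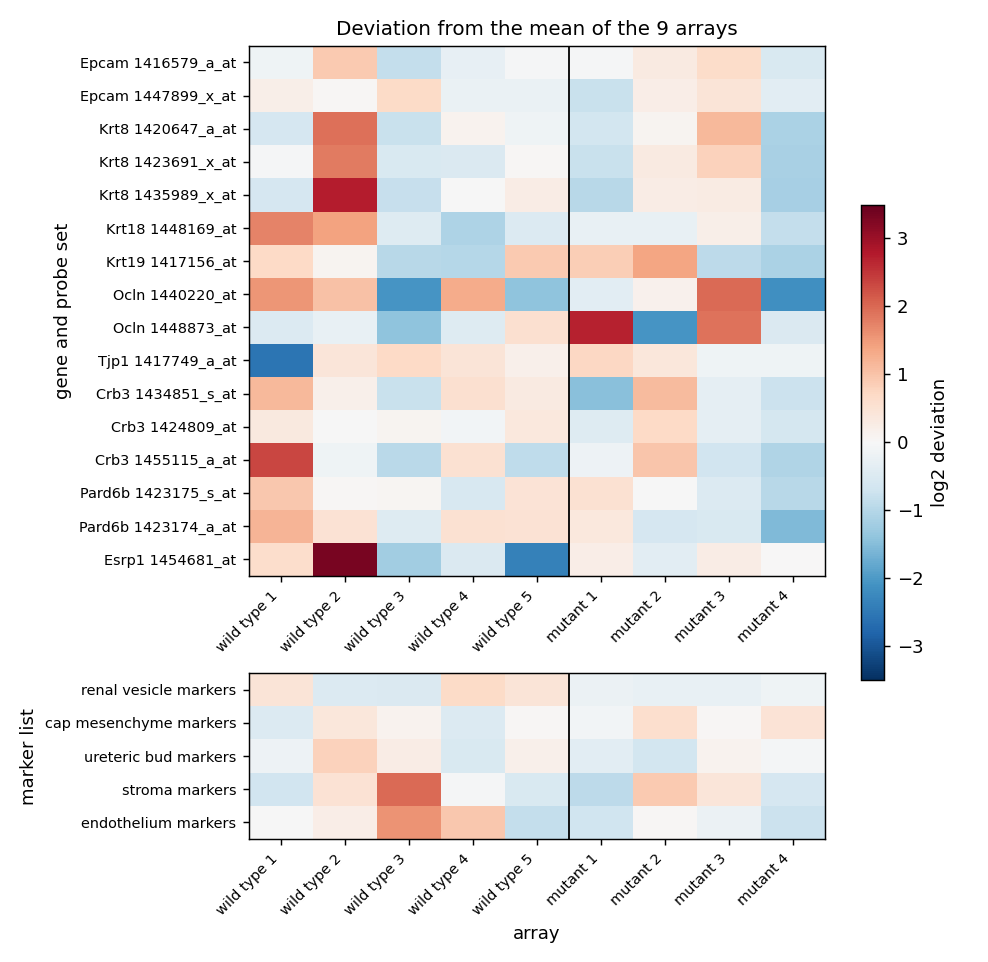
Deviation of each probe set of the 9 genes from its mean over the 9 arrays (upper panel, normalised log2 units) and the level of each cell type marker list on the same arrays (lower panel, median deviation of the list's genes), with wild-type arrays left of the line. Wild-type array 2 is high for Krt8 and Esrp1 and has the highest ureteric bud level, 0.80, and wild-type array 1 is low for Tjp1.

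Wild-type array 2, highest for Epcam 1416579_a_at, for Krt8 and for Esrp1, was also the array with most ureteric bud signal. Bud markers fixed as a list had 9 of 12 measured genes above the filter, with Gata3, Hoxb7 and Slco4c1 below it. The level of the list was 0.80 on wild-type array 2, -0.52 to 0.25 on the other wild-type arrays and -0.65 to 0.12 on the mutants. Mutant minus wild type, the median log2 difference of the 9 tested bud genes was -0.60, against 0.07 over all genes. Of the 9, 2 lay above 0 and 7 below. None passed, and 1 had an unadjusted limma p below 0.05, where 7.73% of all genes did. Summed over the 12 genes, the signal was 65995 on wild-type array 2, 10726 to 22736 on the other wild-type arrays and 11009 to 21103 on the mutants. Most of the sum on wild-type array 2 came from Calb1, which encodes the bud calcium buffer calbindin. Calb1 read 39640 there against at most 6566 elsewhere. At the other Epcam probe set this array read 1329, the median of the wild-type arrays. The part of bud cells in the values of Epcam, Krt8 and Esrp1 was not tested. Without this array the differences were 0.44 for Epcam 1416579_a_at, 0.21 for Krt8 1420647_a_at and 0.90 for Esrp1, and none passed. Mesothelium, which also carries Krt8, Krt18 and Krt19, had 0 of 4 markers above the filter, with summed signals of 79.6 to 315 on wild-type arrays and 82.4 to 488 on mutant arrays.

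Among the 36 pairs of the 9 genes, each at its brightest probe set, Epcam and Krt8 were the only pair past the adjusted threshold for r, and none passed for rho. Over the 9 arrays Pearson's r was 0.885 (exact permutation p = 0.00135, adjusted over the 36 pairs p = 0.0485) and Spearman's rho was 0.800 (exact permutation p = 0.0138, adjusted p = 0.373). Without wild-type arrays 2 and 3, the farthest from the Epcam median, r was 0.835, and with each group centred on its mean it was 0.930. With each array left out in turn r stayed between 0.810 and 0.914, but its adjusted p then ran from 0.0277 to 0.425 and was below 0.05 only without wild-type array 4. Without quantile normalisation the adjusted p was 0.0714 and with median centring 0.0855. Of the 36 correlations 27 were above 0, and 3 had an unadjusted exact permutation p below 0.05. The others of those 3 were Krt19 with Pard6b (r = 0.738, rho = 0.617, exact permutation p = 0.0281 and 0.0857), where Krt19 was dim, and Krt18 with Esrp1 (r = 0.674, rho = 0.767, exact permutation p = 0.0454 and 0.0214), which was 0.223 without wild-type arrays 1 and 2. Tjp1 was below 0 with 6 of its 8 partners, to -0.63 with Krt18 (rho = -0.37, exact permutation p = 0.0760 and 0.336), a value that was -0.13 without wild-type arrays 1 and 2.

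**Figure D4:**
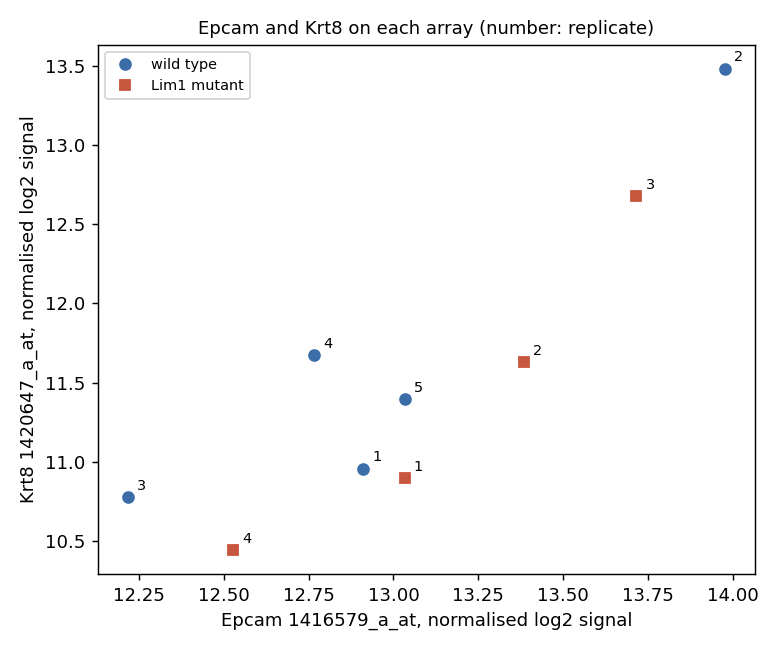
Normalised log2 signal of Krt8 1420647_a_at against Epcam 1416579_a_at on each array, numbered by replicate, with wild-type arrays as blue circles and mutant arrays as red squares. Arrays of both groups lie along the same rise (r = 0.885), from mutant array 4 and wild-type array 3 at the low end to mutant array 3 and wild-type array 2 at the high end.

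The promoters of Epcam and Krt8 are shown because these genes were the pair past the adjusted threshold for r, at 1 Epcam probe set and with the limits given above. Each is the 250 bases before the gene's start in RefSeq (GRCm38.p6), read along the strand of the gene. Capitals mark matches to CACCTG or its reverse complement CAGGTG, the E-box form bound by the repressors of the Snail and Zeb families. The Epcam window is chr17:87635729-87635978 on the plus strand, and the Krt8 window chr15:102004343-102004592 on the minus strand.
Epcam: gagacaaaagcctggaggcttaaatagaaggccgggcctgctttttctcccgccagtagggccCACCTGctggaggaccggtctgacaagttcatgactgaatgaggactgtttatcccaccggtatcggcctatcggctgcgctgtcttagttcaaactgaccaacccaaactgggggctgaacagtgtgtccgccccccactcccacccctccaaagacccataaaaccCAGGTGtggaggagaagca
Krt8: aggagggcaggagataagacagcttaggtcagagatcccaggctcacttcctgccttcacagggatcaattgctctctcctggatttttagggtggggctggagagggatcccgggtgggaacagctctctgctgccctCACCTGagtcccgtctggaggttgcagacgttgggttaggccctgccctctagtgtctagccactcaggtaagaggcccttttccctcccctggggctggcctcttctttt
Epcam held matches starting at -187 and -19 from the start of the gene, and Krt8 held 1 at -111. RefSeq windows were matched for 7 of the 9 genes, 9 windows in all, and Krt19 and Esrp1 were not matched. Of these 9 windows 7 held the motif, from 6 of the 7 genes, with Tjp1 and the second Ocln window at no match. Over all 32851 windows of the same length 17.2% held it, and 19.4% of 27025 genes had a window with it. The GC content was 56.4% to 77.6% in the windows of these genes, against a median of 52.4% over all windows. Crb3 held the same 3 matches in each of its overlapping windows, which are counted separately above. A match is a description of the letters, not a bound site.

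Factors known to bind this motif were measured on the same arrays. Zeb1 read 6166, 10276, 13560, 665 and 941 on the wild-type arrays and 773, 20.02, 4371 and 2315 on the mutant arrays at its brightest probe set. The groups overlapped, with wild-type arrays 1 to 3 above all others, and the difference was -2.09 ± 1.27 (limma adjusted p = 0.811). The other tested Zeb1 probe set gave 0.22 ± 0.38. Zeb2 had a difference of -0.25 ± 0.61 (limma adjusted p = 0.963), with -1.64 to 0.04 at its other probe sets, and Snai2 one of 0.59 ± 1.03 (limma adjusted p = 0.949). Vim, the mesenchymal intermediate filament, stood at 10531 ± 7302 (SD, n = 5) and 8497 ± 2042 (n = 4), a difference of -0.09 ± 0.43, with 0.35 at another probe set.

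Related genes were taken from 7 lists of junction, polarity and identity genes, 80 of whose 87 measured genes passed the filter. At the brightest probe set of each, none of the 80 passed limma's test over all probe sets, and 7 had an unadjusted p below 0.05. These 7 were Dsp, Cdh1, Krt15, Lsr, Ezr, Fn1 and Sparc. Dsp and Cdh1 were among the preset genes, which were themselves chosen with earlier results of these data known. The others are named because of their values in this fit. Among all 13226 genes 0.0529% passed and 7.73% had an unadjusted p below 0.05. The median difference over all genes was 0.07.

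Desmosome genes had a median difference of 0.42, with 6 of 7 tested genes above 0, 1 below 0 and none passing. Dsp encodes desmoplakin, the plaque protein that anchors keratin filaments at desmosomes. Its signals were 8135, 7565, 1106, 6614 and 8427 in the wild type and 20964, 25106, 23230 and 10640 in the mutants. Every mutant array lay above every wild-type array. The difference was 1.87 ± 0.55 (95% interval 0.66 to 3.07), with an unadjusted limma p of 0.00571 and an adjusted p of 0.647, which did not pass. The exact permutation p was 0.00794, unadjusted and the smallest that 126 splits can give, and 2.25% of tested probe sets had no overlap either. Its other probe set gave 1.64 ± 0.64 (limma adjusted p = 0.722), and with each array left out in turn the first stayed between 1.32 and 2.14. Pkp2, a plakophilin of the same plaque, had a difference of 0.25 ± 0.52, and -0.04 to 1.09 at its other probe sets.

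Adherens junction genes had a median of -0.16, with 3 of 11 above 0, 8 below 0 and none passing. Cdh1, the epithelial cadherin, read 3767, 2313, 2805, 6817 and 5926 in the wild type and 1206, 2373, 1834 and 2119 in the mutants. Of the mutant arrays only array 2 lay above the lowest wild-type array. The difference was -1.10 ± 0.40 (unadjusted limma p = 0.0192, adjusted p = 0.703, exact permutation p = 0.0397 unadjusted). Cdh1 and Dsp thus had differences of opposite sign, and neither passed over all probe sets.

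Other tight junction genes had a median of 0.40, with 8 of 12 above 0 and 4 below. Marveld2, the tricellulin of three-cell contacts, stood at 3204 ± 1161 (SD, n = 5) and 3611 ± 1758 (n = 4), a difference of 0.08 ± 0.48. F11r, the junctional adhesion molecule JAM-A, had 0.34 ± 0.30 at its brightest probe set and -0.52 ± 0.49 at the other. Cgn, cingulin, had 0.46 ± 0.53, and Tjp3, the ZO-3 scaffold, had -0.71 ± 0.49. None of these 4 passed (limma adjusted p = 0.843 to 0.988). Lsr, the angulin of three-cell contacts, had 1.01 ± 0.39 (limma unadjusted p = 0.0246, adjusted p = 0.720) and overlapping groups.

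Polarity genes had a median of 0.11, with 14 of 20 above 0, 6 below and none passing. At the brightest probe set of each gene, the unadjusted limma p was below 0.05 for 1 of them, Ezr. At these probe sets the groups did not overlap for 1 gene of the 20, where 2.25% of tested probe sets had no overlap. Of the relatives of Pard6b, Pard6a had a difference of 0.05 ± 0.63, which ran from -0.29 to 0.49 with each array left out in turn. Pard6g had one of 0.58 ± 0.45, and its means were 6937 ± 3985 (SD, n = 5) and 9579 ± 3951 (n = 4). Prkci, the atypical kinase that Par6 proteins bind, had 0.01 ± 0.45, and Prkcz, its relative, 0.36 ± 1.08. Pard3, the Par complex scaffold, had -0.89 ± 0.59 at its brightest probe set and 0.40 ± 0.96 at the other. Mpp5, the Pals1 partner of Crumbs proteins, had 0.64 ± 0.68, with -0.33 and 1.26 at its other probe sets. Patj, the next scaffold in that complex, had 0.10 ± 1.05 at its brightest probe set and 2.50 ± 0.64 at the other (limma adjusted p = 0.506). On the basolateral side Llgl2 had -0.48 ± 0.45 and Scrib 0.33 ± 0.33.

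Epithelial splicing and transcription genes had a median of -0.07, with 4 of 10 above 0 and 6 below. Esrp2, the paralog of Esrp1, stood at 699 ± 212 (SD, n = 5) and 705 ± 256 (n = 4), a difference of -0.08 ± 0.45. Grhl2, a grainyhead factor of epithelial junction genes, had 0.66 ± 0.76, Ovol2 -0.08 ± 0.50 and Elf3 -0.06 ± 0.51. Other keratins had a median of -0.10, with 3 of 7 above 0 and 4 below, and Krt14, Krt17 and Krt20 lay below the filter. Krt7, the type II keratin of ducts, stood at 205 ± 157 (SD, n = 5) and 166 ± 47.3 (n = 4), a difference of -0.12 ± 0.53. Krt15, a dim type I keratin, had 1.69 ± 0.69 (limma unadjusted p = 0.0318, adjusted p = 0.729), with overlapping groups. Mesenchymal genes had a median of 0.59, with 9 of 13 above 0 and 4 below. No gene of these 3 lists passed.

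**Figure D5:**
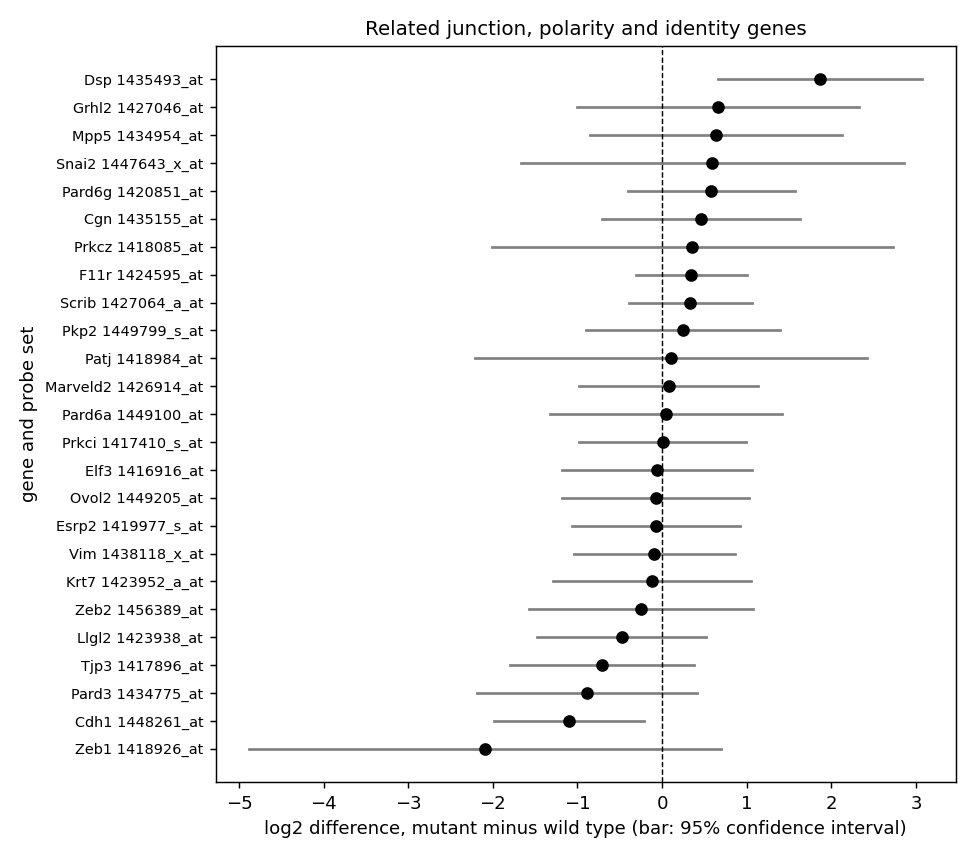
Log2 difference, mutant minus wild type, with its 95% confidence interval from limma, for 25 related junction, polarity, identity and mesenchymal genes at the brightest probe set of each. Dsp (1.87) and Cdh1 (-1.10) are the genes whose interval leaves out 0 before adjustment, and neither passed over all probe sets. The other Patj probe set, at 2.50, is not plotted.

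The genes whose pattern over the 9 arrays was most like each of 4 members were read out of 13225 others, as a description. For Epcam these were Sf3a3 (r = 0.959), Znrd1 (0.935), Syt13 (0.931), Mturn (0.916) and Ptpra (0.913), with Krt8 in place 10. For Krt8 they were Bank1 (r = 0.909), Mturn (0.892), Epcam (0.885), Syt13 (0.867) and Irf2bpl (0.864), which without wild-type array 2 were at 0.683 to 0.897. Mturn and Syt13 stood near both Epcam and Krt8, which correlated with each other at 0.885. For Esrp1 they were Tk1 (r = 0.914), Vgll2 (0.901), Fez2 (0.888), Dnajc27 (0.877) and Timm22 (0.873), which without wild-type array 2 were at 0.716 to 0.794. For Tjp1 they were Zdhhc17 (r = 0.977), Slc25a40 (0.976), Frmd4b (0.971), Bod1l (0.970) and Ccdc126 (0.967), which without wild-type array 1 were at 0.637 to 0.891. None of these genes passed the test between the groups.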

How the data were processed

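Gene expression was measured on 9 Affymetrix arrays, 5 wild type and 4 Lim1 mutant. Per the labels' protocols, RNA was amplified over 2 rounds and labelled with biotin, which favours the 3′ end of transcripts. The authors deposited 1 linear intensity per probe set and array. GCOS made the values, per the submitters' processing notes, with its algorithm and version not given in the sources used here.

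Intensities were taken as log2(value + 42.4), the pseudocount being the 25th percentile of all values, and quantile normalised. Control probe sets (64) were left out, and the 27022 of 45037 others whose mean reached the 40th percentile entered the test. Differences on this scale understate changes of dim probe sets. Mutant minus wild-type differences came from limma 3.58.1 under R 4.3.3 (lmFit, eBayes with trend, group only, two-sided), adjusted by Benjamini-Hochberg over all tested probe sets at 0.05. The fit was tested on simulated data. Signals are printed as deposited; the number of arrays limits precision.

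Correlations used exact permutation of the 9 arrays (Python 3.11.15), two-sided. For lists, the probe set of highest mean stood for a gene. Named were the 9 genes at each probe set, 27 preset related genes (25 with a probe set), and the 5 genes most correlated with Epcam, Krt8, Tjp1 and Esrp1. The genes and lists were chosen with earlier results of these data known. Mutant and wild-type arrays of the same number did not deviate together (r of -0.11 to 0.05 over tested probe sets), so no pairing was used.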

Additional observations from a re-analysis of the deposited data

Results flagged for a closer look

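Of 108 groups of 4 or 5 values, 7 held an array far from the others by Dixon's test on normalised log2 values, where chance gives about 5.4 (about 1 group in 20). Wild-type array 2 read 6350 for Krt8 at 1423691_x_at, against 1178 to 1675 on the other wild-type arrays. Wild-type array 1 read 1113 for Tjp1, against 8528 to 12090 on the others. For Dsp, wild-type array 3 read 1106 against 6614 to 8427, and mutant array 4 read 10640 against 20964 to 25106. Wild-type array 4 read 4399 for Pard3, against 1102 to 1640. Mutant array 2 read 304 for Pard6a, against 1103 to 1292 on the other mutants. The level of the polarity list was -0.28 on wild-type array 3, against 0.05 to 0.13 on the other wild-type arrays.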

How the results depend on the processing

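No member passed under any alternative run, nor did any related gene, which were not refitted with probe sets averaged. The alternatives varied the normalisation, pseudocount, filter, variance trend, array weights, replicate block, averaging of probe sets and arrays left out. The lowest adjusted p was 0.598 among 260 refits of member probe sets, for Pard6b 1423174_a_at without wild-type array 3. At an unadjusted limma p below 0.05 there was 1 member or 0 in each fit by probe set. It was Pard6b 1423174_a_at, below 0, with median centring, without the variance trend and with array weights. The same probe set was below 0.05 without wild-type array 3 and without mutant array 1. Without mutant array 2 the member was instead Ocln 1448873_at, above 0 at 1.78. The other fits by probe set had 0. The sign turned in 23 of the 260 refits. For Esrp1 it did so with the pseudocount at the median (-0.11), with array weights (-0.10), with the replicate block (-0.52) and without wild-type arrays 1 and 3 (-0.082). Leaving out 1 array gave -0.51 to 0.90. Without wild-type arrays 1 and 3 the Epcam probe sets gave -0.094 and 0.029 and Tjp1 -0.15. With probe sets averaged per gene Epcam gave -0.011 and Ocln 0.37. Leaving out 1 array gave -0.0082 to 0.44 and -0.40 to 0.016 for Epcam, -0.66 to 0.21 and -0.68 to 0.073 for Krt8, -0.87 to 0.51 for Ocln 1440220_at and -0.24 to 0.58 for Tjp1. The cause of these turns was not tested.

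Over the whole array 9 probe sets passed, 3 to 8 with 1 array left out, and 0 in limma without wild-type arrays 1 and 3 (2013 at an unadjusted p below 0.05). With the replicate block 0 passed (1756 unadjusted), and 1 of 4 mutant arrays correlated best with its own number. The correlation alternatives, added after seeing the data, gave 1 pair or 0: 0 without quantile normalisation, 0 with median centring and 0 to 1 with 1 array left out.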
